A study of Homo sapiens with 4 samples.

Results

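C28/I2 is a human chondrocyte line made from juvenile costal cartilage and immortalised with the SV40 large T antigen, a viral protein that drives cells into division. Its control state was described here from the 2 RNA-seq libraries of cells kept for 48 h with 0.5% DMSO, the solvent arm of a study of the adipokine FABP4. The cells grew in DMEM with 10% serum, and total RNA was sequenced. They are 2 of the 4 libraries of the series; the others, from cells given FABP4, were not used. No source used here gives untreated cells without DMSO or says that the 2 libraries came from separate cultures, and an immortalised line is 1 cell population rather than a set of donors. All levels are FPKM, fragments counted per length of transcript and per library size, a unit that allows genes to be compared. A gene was called present when it had at least 1 FPKM in both libraries. By this rule 12140 of 19215 listed genes were present (63.2%), which is the background for every count below. With 1 group and 2 libraries there is no test, and each level is given as replicate 1 and then replicate 2.

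Cartilage is built by cells that secrete type II collagen, a proteoglycan gel around aggrecan, and linking proteins, under the transcription factors SOX9, SOX5 and SOX6. Chondrocytes that are grown on plastic or immortalised are known for losing this programme and for making type I collagen, as fibroblasts do. Measured this way, the label of a chondrocyte held only in part. The line had SOX9 and a little aggrecan mRNA but almost no type II collagen mRNA. It had high levels of type I and type VI collagen chains and of COL5A1, and mRNA of every one of 31 cell cycle genes. In bulk RNA, fewer cells that express a gene and less RNA per cell cannot be told apart.

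The single highest listed level belonged to MTRNR2L2, a nuclear copy of a stretch of the mitochondrial 16S ribosomal RNA gene MT-RNR2, with 26466 and 18953 FPKM. MTRNR2L8, a longer copy on chromosome 11, came next with 12036 and 9745 FPKM. The table lists 9 such copies, of which 7 were present, and together they held 6.64% and 5.16% of the summed FPKM; it lists no mitochondrially encoded gene. How alike copy and source are is shown by a 60-base stretch from the GENCODE 29 transcripts, bases 624 to 683 of MTRNR2L8 and 623 to 682 of MT-RNR2, read 5′ to 3′, with the 5 differing bases in capitals.
MTRNR2L8: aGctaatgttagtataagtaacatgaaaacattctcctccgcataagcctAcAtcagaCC
MT-RNR2: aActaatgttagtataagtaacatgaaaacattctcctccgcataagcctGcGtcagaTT
Over 1299 aligned bases MTRNR2L8 was 93.1% identical to MT-RNR2, and 8.93% of its 50-base windows occurred in MT-RNR2 without a mismatch. The GENCODE 29 transcript of MTRNR2L2 has 87 bases, 65 of which align with MT-RNR2 at 98.5% identity. In RefSeq the gene spans 611 bases. The fragment length estimated from these libraries was 290 bases, between these 2 lengths. Which transcript models the authors used is not given in the sources used here. Whether the levels of the copies come from mitochondrial RNA was not tested.

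The third highest gene was MT2A, a metallothionein, one of the small cysteine-rich proteins that bind zinc and copper and are induced by these metals through metal response elements. It had 8021 and 7109 FPKM, and its neighbour MT1X had 789 and 782 FPKM, so the ratio of MT2A to MT1X was 10.2 and 9.09. The other metallothionein genes were far lower: MT1G had 7.45 and 10.7 FPKM, MT1B 1.92 and 3.78 FPKM and MT1F 2.07 and 2.03 FPKM. MT1H had 0 and 0.61 FPKM, and MT1A, MT1E, MT1M and MT3 were listed at 0 in both libraries. Of this family 5 of 10 genes were present, and it held 1.46% and 1.36% of the summed FPKM. The promoter of MT2A is shown because it carries several copies of the core of the metal response element. It is the 250 bases before the start from RefSeq (GRCh38.p14, chr16:56608334-56608583, plus strand), with matches to TGCACNC or TGCGCNC on either strand in capitals.
MT2A promoter: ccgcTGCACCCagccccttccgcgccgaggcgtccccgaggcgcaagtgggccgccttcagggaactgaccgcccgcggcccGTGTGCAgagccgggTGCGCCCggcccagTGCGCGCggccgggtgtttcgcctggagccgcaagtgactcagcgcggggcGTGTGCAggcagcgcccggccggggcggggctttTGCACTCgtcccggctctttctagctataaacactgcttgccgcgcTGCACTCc
It holds 7 matches, 5 on the forward and 2 on the reverse strand. At least 1 match was found in 24.7% of the 27305 RefSeq promoters of the same length, and 7 or more in 9 of them (0.0330%). Among promoters of genes present the share with at least 1 match was 33.7%, and at 1000 FPKM or more 40.4% (23 of 57). RefSeq gave a promoter for 4 of the 10 metallothionein genes. Of the others among these 4, MT1X has 4 matches, MT1B has 3, and MT1H, which was not present, has 8.

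The fourth highest gene was GAGE12B, a testis antigen gene, and after it came mostly cytoskeletal, iron storage, metabolic and ribosomal protein genes. ACTB, encoding beta-actin, had 7111 and 5543 FPKM. The ferritin chains FTH1 and FTL, which store iron, had 5189 and 5031 FPKM and 3606 and 3011 FPKM. GAPDH, a glycolytic enzyme, had 4926 and 4431 FPKM. LGALS1, the galectin-1 gene, had 4040 and 3982 FPKM, and the intermediate filament gene VIM had 3364 and 3373 FPKM. The thymosins TMSB10 and TMSB4X, which bind actin monomers, had 4038 and 3443 FPKM and 3145 and 3585 FPKM. Among the 25 highest genes 7 encoded ribosomal proteins and 6 belonged to the cytoskeleton list. The S100 calcium-binding proteins S100A6 and S100A11 were also among them, with 2428 and 2603 FPKM and 2137 and 1839 FPKM. None of the 25 belonged to the cartilage matrix list.

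**Figure D1:**
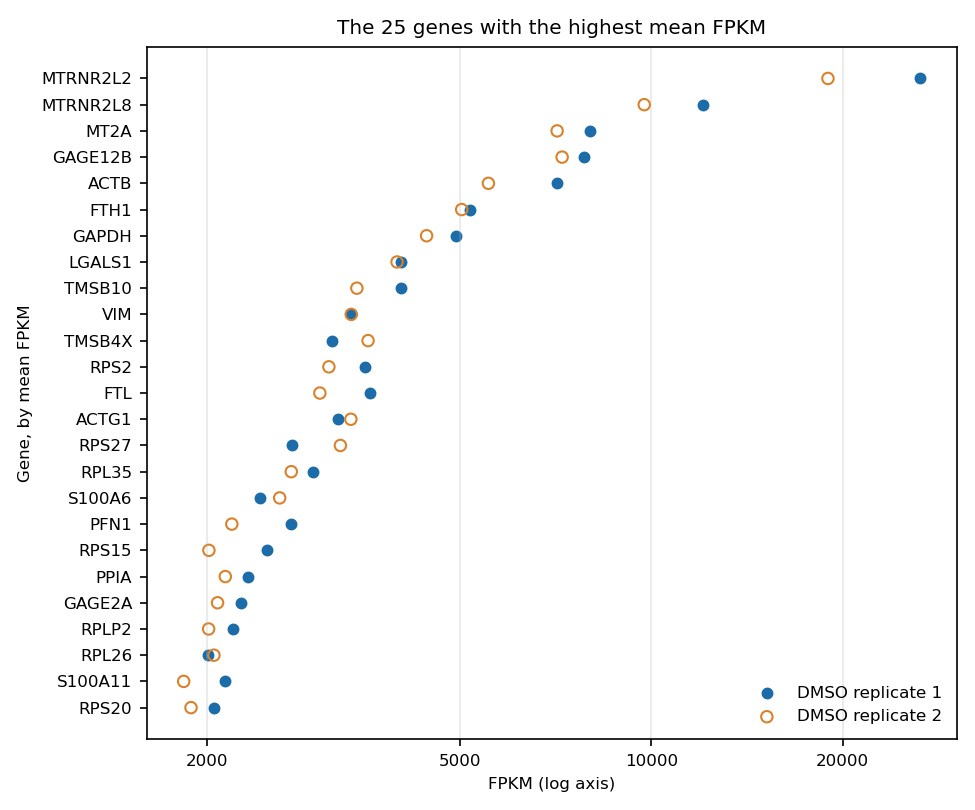
FPKM on a log axis of the 25 genes with the highest mean level, 1 row per gene, with filled points for DMSO replicate 1 and open points for DMSO replicate 2. MTRNR2L2 stood highest at 26466 and 18953 FPKM and shows a visible gap between its 2 points, while VIM, at 3364 and 3373 FPKM, shows almost none.

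GAGE genes, a cluster of near-identical cancer and testis antigen genes on the X chromosome that healthy adult tissue other than testis hardly expresses, made up 2 of the 25 and 4 of the 100 highest genes. GAGE12B had 7842 and 7239 FPKM, GAGE2A 2265 and 2079 FPKM, GAGE1 1710 and 1610 FPKM and GAGE12G 1495 and 1798 FPKM. As a family they held 2.30% and 2.28% of the summed FPKM, with 9 of 10 listed genes present. All 60 of the 50-base windows examined in GAGE12B and in GAGE12G also occurred in other genes, as did 86.7% of those in GAGE2A, so the division between members is uncertain; in GAGE1 13.3% did. The longest GENCODE 29 transcript of GAGE12B has 117 bases, under the estimated fragment length, and that of GAGE1 has 3129 bases. The models behind the FPKM are not given and may differ in length. Because FPKM is per length, the family total also depends on how reads were divided between these models. SPANXA1 and SPANXA2, another pair of X-linked testis antigens, had 918 and 507 FPKM and 1118 and 1421 FPKM; all their windows were shared as well.

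**Figure D2:**
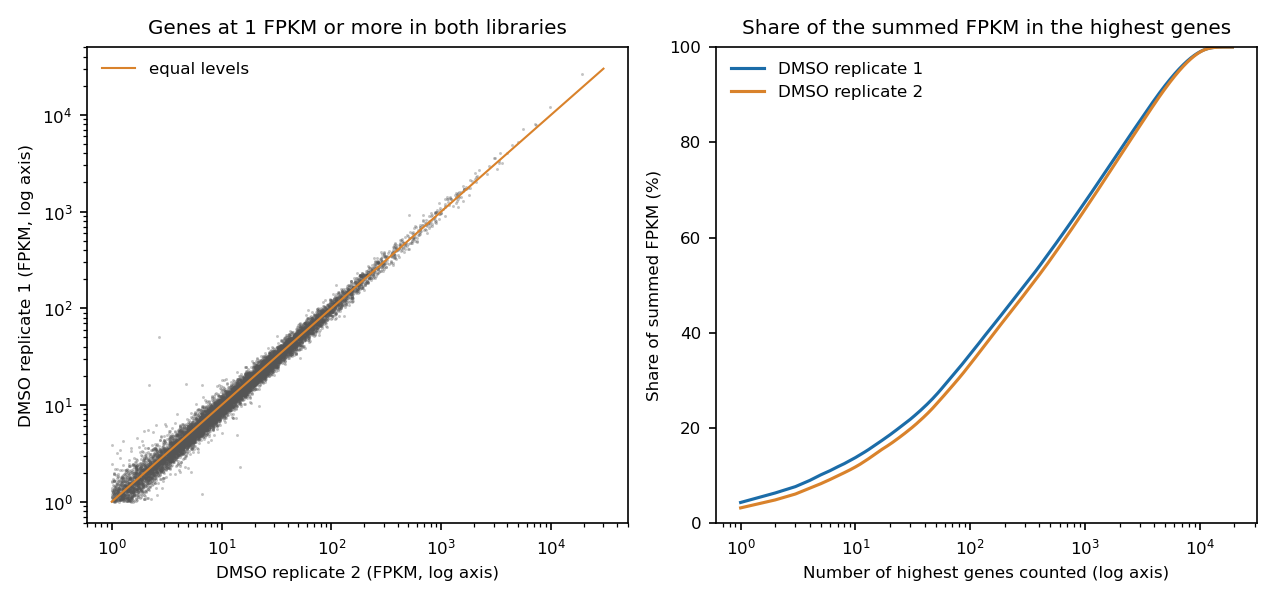
Left, FPKM of the 12140 genes present in DMSO replicate 1 against DMSO replicate 2 on log axes, each point a gene, with the line of equal levels. Right, the cumulated share of the summed FPKM against the number of highest genes counted (log axis), 1 line per library; the 100 highest genes held 35.5% and 33.4%.

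Levels were spread over 4 powers of 10, with a median of 12.1 FPKM among the genes present and quartiles of 4.89 and 30.5 FPKM. Between 1 and 10 FPKM lay 5393 genes, which held 4.14% and 4.51% of the summed FPKM. The 5843 genes between 10 and 100 FPKM held 29.7% and 30.9%, and the 833 between 100 and 1000 FPKM held 34.8% and 35.3%. Only 71 genes had a mean of 1000 FPKM or more, and they held 31.2% and 29%. In replicate 1 the 299 highest genes made up 50% of the sum, and in replicate 2 the 342 highest did. The single highest gene held 4.39% and 3.25%, the 10 highest 13.8% and 11.8%. Of the 100 highest genes 40 encoded ribosomal proteins, 12 belonged to the cytoskeleton list, 4 to glycolysis and 3 to the translation factors. All 82 ribosomal protein genes were present, with a median of 765 FPKM against 4.13 FPKM over all listed genes, and they held 12.2% and 12.6% of the summed FPKM. Among the rest of the 100 were CTSD, a lysosomal protease, with 1419 and 1119 FPKM, CPA4, a secreted carboxypeptidase, with 1149 and 1289 FPKM, and KRT81, a hair keratin, with 997 and 898 FPKM. Of the windows of CTSD 58.3% occurred in other genes, and 40% of those of KRT81 did. Any other gene name counts here, so overlapping models at the same place raise the share as copies elsewhere do. The share does not tell them apart. COL1A1 was the single collagen among the 100 highest genes.

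Ribosomal protein mRNAs of mammals are known to begin with a C followed by a run of pyrimidines, the 5′ terminal oligopyrimidine motif through which growth signals control their translation. RefSeq start sites of 3 of the highest ribosomal protein genes and of EEF1A1, a translation elongation factor, are shown. Those of VIM and GAPDH, also among the highest genes, are set beside them. Each has 30 bases before and 12 from the start on (GRCh38.p14), with the pyrimidine run from the first transcribed base in capitals.
RPS27, chr1:153990732-153990773, plus strand: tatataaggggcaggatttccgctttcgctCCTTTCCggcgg
RPL35, chr9:124861946-124861987, minus strand: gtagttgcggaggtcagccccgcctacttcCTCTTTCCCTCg
RPLP2, chr11:809937-809978, plus strand: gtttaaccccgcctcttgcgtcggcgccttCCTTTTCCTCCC
EEF1A1, chr6:73521021-73521062, minus strand: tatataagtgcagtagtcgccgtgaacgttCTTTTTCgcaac
VIM, chr10:17228211-17228252, plus strand: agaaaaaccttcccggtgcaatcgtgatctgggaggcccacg
GAPDH, chr12:6535234-6535275, plus strand: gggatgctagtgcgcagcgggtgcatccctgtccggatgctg
RPS27 had 2726 and 3243 FPKM, RPL35 2933 and 2715 FPKM, RPLP2 2195 and 2013 FPKM and EEF1A1 1406 and 1519 FPKM. The runs of RPS27, RPL35 and EEF1A1 were 7, 11 and 7 pyrimidines long, and that of RPLP2 filled all 12 bases shown and may go on. VIM and GAPDH had none at the start shown, which is the first entry for each gene. Other start sites of these genes were not examined, so their absence of a run holds for the printed stretch only. A C followed by 4 pyrimidines opened 43 of the 67 ribosomal protein promoters that RefSeq gave (64.2%), against 4.04% of all 27305 promoters and 5.52% of those of genes present. By level, it opened 5.33% of promoters at 10 to 100 FPKM, 11.7% at 100 to 1000 FPKM and 31.6% (18 of 57) at 1000 FPKM or more. Without the ribosomal protein genes it opened 3 of 37 (8.11%) in the highest class. The lower classes hold ribosomal protein genes too, and their shares without these were not computed. The letters TATAAA were searched on both strands in the 250 bases before the start. They were found in 4.08%, 7.91% and 12.3% (7 of 57) of promoters in the same classes of level. Among promoters of genes present the share was 5.30%, and among all promoters 11.1%. Below 10 FPKM fewer than 80% of genes had a promoter sequence, and no share is given.

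Cartilage matrix genes were largely missing. Of 29 listed members 6 were present (20.7%, against 63.2% of all genes), 3 reached 1 FPKM in 1 library, 20 were under 1 FPKM in both and 4 of these were listed at 0; the median was 0.325 FPKM. COL2A1, which encodes the type II collagen of cartilage fibrils, had 0 and 0.02 FPKM. COL9A1, a partner of type II collagen on the fibril, CNMD, the chondromodulin gene, and UCMA and EPYC were at 0 in both libraries. ACAN, encoding aggrecan, the large proteoglycan that binds water, had 3.29 and 2.88 FPKM. COL11A2, a chain of the type XI collagen inside cartilage fibrils, had 3.07 and 2.78 FPKM. These 2 were the only ones of 8 defining markers that were present. HAPLN1, which links aggrecan to hyaluronan, had 0.16 and 0.38 FPKM, COMP 0.43 and 0.42 FPKM and MATN1, a matrilin, 0.04 and 0.04 FPKM. For an effective length of 1 kilobase, 3 fragments correspond to 0.232 and 0.228 FPKM, and for a longer transcript to less.

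One member of the list was abundant. CHI3L1, encoding the secreted glycoprotein YKL-40 that chondrocytes of damaged joints and many other cells release, had 303 and 266 FPKM. The next member, MIA, a small secreted cartilage protein, had 4.85 and 4 FPKM, and 56.7% of its windows occurred in other genes. SNORC, a cartilage membrane proteoglycan, had 2.34 and 2.03 FPKM, and CILP 1.66 and 1.52 FPKM. CILP2 (1.22 and 0.97 FPKM), COL11A1 (0.97 and 1.15 FPKM) and FRZB, a secreted Wnt antagonist (1.13 and 0.58 FPKM), lay at the threshold. PRG4, the lubricin gene of the joint surface, had 0.13 and 0.05 FPKM. Apart from CHI3L1, no cartilage matrix gene reached 5 FPKM in both libraries.

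**Figure D3:**
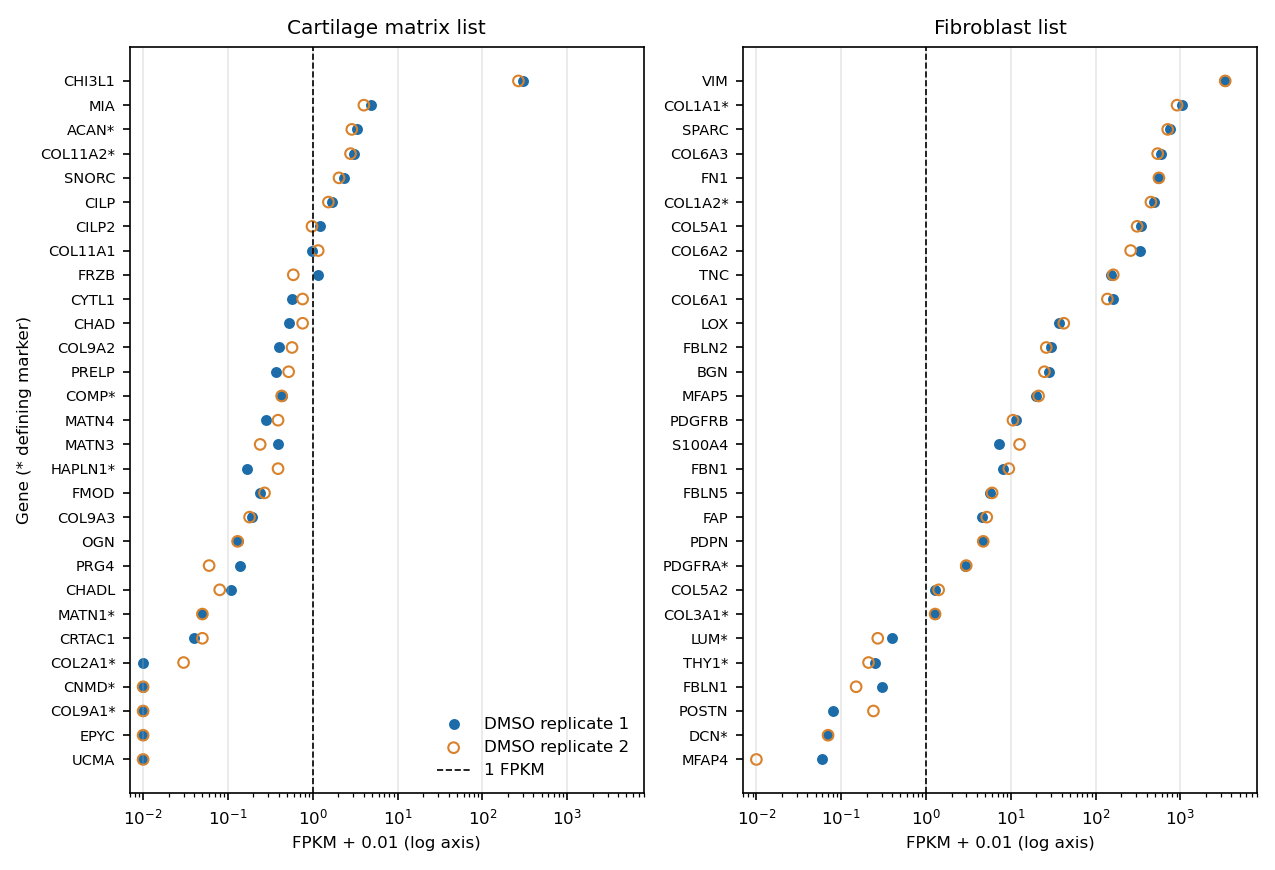
FPKM plus 0.01 on a log axis of the 29 cartilage matrix genes (left) and the 29 fibroblast genes (right), 1 row per gene, filled points for DMSO replicate 1, open points for DMSO replicate 2 and a dashed line at 1 FPKM; asterisks mark defining markers. On the left 6 genes lie right of the line in both libraries and on the right 23 do.

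The enzymes that make the sugar chains of proteoglycans were widely present even so, with 19 of 23 listed genes and a median of 9.52 FPKM. CHPF, a chondroitin polymerizing factor, had 193 and 150 FPKM, and B3GAT3, which completes the linker between protein and chain, had 93.0 and 81.0 FPKM. CHST11, which sulfates chondroitin, had 9.33 and 8.96 FPKM. SLC26A2, the sulfate transporter mutated in diastrophic dysplasia, had 6.22 and 7.54 FPKM. HAS2, the main hyaluronan synthase of chondrocytes, had 0 and 0.02 FPKM, while HAS3 had 1.41 and 1.10 FPKM. CHPF, B3GAT3, CHST11 and SLC26A2 were thus all above ACAN, the main core protein for such chains in cartilage.

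Among 20 chondrogenic and mesenchymal transcription factor genes 12 were present (60%, near the share over all genes), with a median of 1.46 FPKM. SOX9, the master regulator of cartilage, had 11.3 and 11.3 FPKM. Its partners were missing: SOX5 was listed at 0 in both libraries and SOX6 had 0.05 and 0.01 FPKM. The highest members were RUNX1, with 18.7 and 18.5 FPKM, and TWIST2, with 13 and 11.1 FPKM. RUNX2, which drives hypertrophy and bone formation, had 8.03 and 9.04 FPKM, and ARID5B, a coregulator of SOX9, had 8.31 and 10.0 FPKM. NKX3-2, an early chondrogenic repressor, had 2.13 and 1.31 FPKM, and TRPS1, a growth plate factor, 0.58 and 0.90 FPKM. PRRX1, a limb mesenchyme factor, had 0.04 and 0.02 FPKM, and PRRX2 was listed at 0.

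Hypertrophic and bone genes were present in 4 of 16 cases, and none of the 5 defining markers was. DLX5, a homeobox activator of osteoblast genes, had 39.7 and 33.0 FPKM, the highest of the list. PTH1R, the parathyroid hormone receptor, had 1.55 and 1.25 FPKM, and PHEX 1.4 and 1.41 FPKM. COL10A1, the collagen of hypertrophic cartilage, had 0.13 and 0.05 FPKM, IHH 0.21 and 0.28 FPKM, and SP7, the osterix gene, was listed at 0. BGLAP, encoding osteocalcin, had 0.51 and 0 FPKM and IBSP 0.06 and 0 FPKM. Of the list, DLX5 alone was well above the threshold.

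Tendon and synovium markers were present in 3 of 9 cases. SCX, encoding scleraxis, the tendon progenitor factor, had 43.4 and 32.9 FPKM. FOXD1 had 27.7 and 32.5 FPKM and CD55, which is found on synovial lining fibroblasts among many cells, 22.4 and 23.1 FPKM. TNMD, the tendon matrix marker tenomodulin, had 0 and 0.08 FPKM and MKX 0.12 and 0.09 FPKM.

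Fibroblast genes were the best covered lineage list, with 23 of 29 members present (79.3%) and a median of 11.1 FPKM against 4.13 FPKM over all listed genes. Members need not be particular to fibroblasts: VIM is on the cytoskeleton list too, and only 7 of the 29 are defining markers. COL1A1 and COL1A2, the chains of type I collagen, had 1048 and 914 FPKM and 484 and 449 FPKM. The ratio of their mRNA levels was 2.17 and 2.04. SPARC, which binds collagen, had 757 and 708 FPKM, and FN1, the fibronectin gene, 537 and 558 FPKM. TNC, encoding tenascin-C, had 152 and 161 FPKM. COL1A1 exceeded ACAN by factors of 319 and 317. Of the 7 defining markers 4 were present: COL1A1, COL1A2, PDGFRA and COL3A1, the last with 1.27 and 1.27 FPKM. The other defining markers were below 1 FPKM in both libraries. THY1 had 0.24 and 0.20 FPKM, DCN, the decorin gene, 0.06 and 0.06 FPKM, and LUM, the lumican gene, 0.39 and 0.26 FPKM. PDGFRA, a platelet-derived growth factor receptor of mesenchyme, had 2.88 and 2.97 FPKM. POSTN, encoding periostin, had 0.07 and 0.23 FPKM.

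Collagens were not expressed as a fibroblast set either. Of 44 collagen genes 22 were present (50%), with a median of 1.11 FPKM. The highest after COL1A1 were COL6A3, with 597 and 539 FPKM, COL1A2, given above, COL5A1, with 343 and 309 FPKM, and COL6A2, with 331 and 259 FPKM. COL3A1, the second fibrillar collagen of most connective tissue, had 1.27 and 1.27 FPKM, so COL1A1 exceeded it 825-fold and 719-fold. COL5A2 had 1.28 and 1.4 FPKM, and COL5A1 exceeded this partner chain of type V collagen 268-fold and 220-fold. Among the fibrillar collagen chains only COL1A1, COL1A2 and COL5A1 were abundant: COL3A1 and COL5A2, neighbours on chromosome 2, were close to 1 FPKM, COL5A3 had 3.76 and 2.54 FPKM and COL27A1 11.6 and 12 FPKM. Basement membrane collagens were present too, with COL4A2 at 93.8 and 80.6 FPKM and COL4A1 at 37.3 and 40.6 FPKM. COL7A1, the anchoring fibril collagen of skin, had 85.3 and 82.7 FPKM.

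Laminins, the other main basement membrane proteins, were present in 10 of 12 cases. LAMB3 had 167 and 145 FPKM, LAMB1 139 and 133 FPKM and LAMA1 61.2 and 60.7 FPKM. Of the receptors for matrix, ITGA3 had 811 and 689 FPKM, ITGB1 490 and 600 FPKM and ITGA5, the fibronectin receptor chain, 502 and 431 FPKM. ITGA10, the collagen receptor chain known from chondrocytes, had 11 and 11.6 FPKM, and ITGA11, its fibroblast counterpart, 16.3 and 15.3 FPKM. CD44, the hyaluronan receptor, had 194 and 195 FPKM.

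Contractile genes reached high levels. The smooth muscle list had 10 of 14 members present, with a median of 36.8 FPKM. TPM1, a tropomyosin, had 641 and 720 FPKM, MYL9, a myosin light chain, 249 and 246 FPKM, and TAGLN 77.2 and 77.4 FPKM. ACTA2, the smooth muscle actin of myofibroblasts, had 60.8 and 60.8 FPKM, and CNN1, a calponin, 13.6 and 11.9 FPKM. MYH11, the smooth muscle myosin, had 0.02 and 0.01 FPKM and MYOCD, the myocardin gene, was listed at 0. Of the 5 defining markers of the list 3 were present, namely ACTA2, CNN1 and DES. MYH11 and MYOCD, which mark differentiated smooth muscle, were the defining markers that were missing.

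Markers of 9 other lineages were present in 36 of 106 cases (34.0%), and 5 of the 29 defining markers were: SNAP25, RBFOX3, NKX2-5, CIDEC and POU5F1. Endothelial (4 of 13), epithelial (6 of 17) and blood (4 of 15) lists lacked all their defining markers. PECAM1 had 0.01 and 0.01 FPKM, CDH5 0.02 and 0.06 FPKM and VWF 0.37 and 0.29 FPKM. EPCAM had 0.06 and 0.06 FPKM and CDH1, encoding E-cadherin, 0.05 and 0.05 FPKM. PTPRC, the leukocyte antigen CD45, had 0 and 0.03 FPKM. ADIPOQ of fat cells and SOX10 of neural crest and glia were listed at 0. None of these markers reached 1 FPKM in either library.

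**Figure D4:**
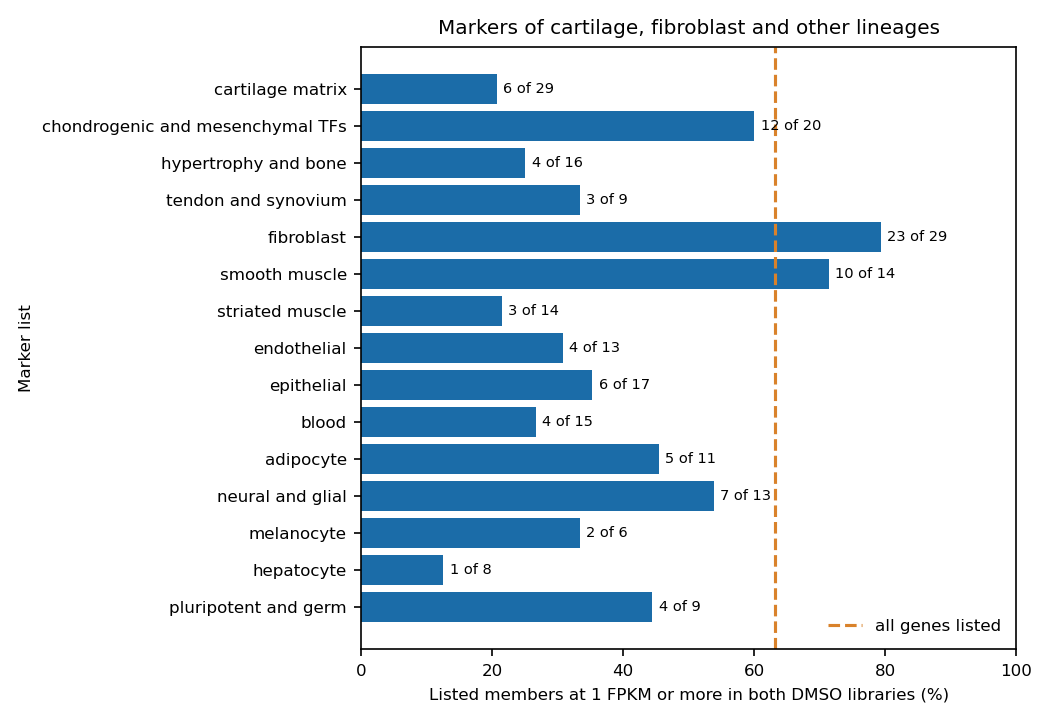
Percent of each marker list at 1 FPKM or more in both DMSO libraries, 1 bar per list with the number of members beside it, and a dashed line at the 63.2% of all listed genes. The fibroblast list (23 of 29) and the smooth muscle list (10 of 14) pass the line, and the cartilage matrix list (6 of 29) ends well before it.

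Only 9 of the 106 markers reached 10 FPKM in both libraries. TUBB3, a tubulin used as a neuronal marker, had 223 and 195 FPKM, and 78.3% of its windows occurred in other genes. CD68, a lysosomal protein of macrophages and many cultured cells, had 169 and 148 FPKM, with 91.7% of its windows shared. Such shares also count overlapping gene models at the same place, so they need not mean look-alike genes. KRT18 and KRT8, the keratins of simple epithelia, had 74.9 and 68.9 FPKM and 38.1 and 30.2 FPKM. TNNT1, the slow skeletal troponin T, had 55.6 and 51.2 FPKM, SERPINA1, alpha-1 antitrypsin, 31.3 and 28.1 FPKM, and MITF 15.8 and 19.6 FPKM. MAP2 had 13.2 and 12.8 FPKM and PPARG, the fat cell nuclear receptor, 11.9 and 13.5 FPKM. Each stood without the defining markers of its lineage, except that SNAP25 (4.76 and 4.97 FPKM) and RBFOX3 (2.45 and 2.15 FPKM) accompanied the neuronal genes, NKX2-5 (8.93 and 6.53 FPKM), a heart factor, accompanied TNNT1, and CIDEC (1.13 and 1.01 FPKM), a lipid droplet protein, accompanied PPARG. FABP4 itself, the protein the study added to other cells of this line, had 2.10 and 1.93 FPKM. Among stem cell genes, TERT, the telomerase catalytic subunit, had 2.94 and 2.84 FPKM, LIN28A 3.23 and 3.03 FPKM, and SOX2 was listed at 0. Keratin genes were present in 11 of 55 cases, led by KRT81 and by KRT75 (183 and 172 FPKM), both keratins of the hair follicle.

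Proteases that break down matrix differed widely in level. Of 22 matrix metalloproteinase genes 14 were present (63.6%), near the share over all genes. MMP2, a gelatinase, had 694 and 587 FPKM, MMP3, stromelysin-1, 523 and 569 FPKM, and MMP14, the membrane protease that activates MMP2, 197 and 187 FPKM. The collagenases of joint disease were lower, with MMP1 at 24.8 and 25.2 FPKM and MMP13 at 4.65 and 5.73 FPKM. MMP3 exceeded MMP13 by factors of 113 and 99.2. The ADAMTS genes were present in 9 of 19 cases, led by ADAMTS2, which trims procollagen, with 43.3 and 41.5 FPKM. Both main aggrecanases were missing, with ADAMTS4 at 0.02 and 0.01 FPKM and ADAMTS5 at 0 and 0.01 FPKM. Inhibitors of proteases were present in 11 of 14 cases with a median of 45.2 FPKM. TIMP1 had 1211 and 956 FPKM, TIMP2 157 and 174 FPKM and TIMP3 82.9 and 80.7 FPKM.

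Receptors for growth factors were present in 25 of 33 cases (75.8%) and those for inflammatory signals in 24 of 33 (72.7%). ENG, a TGF-beta co-receptor, had 174 and 165 FPKM, AXL 134 and 135 FPKM, FGFR1 67.8 and 60.9 FPKM and MET, the receptor of hepatocyte growth factor, 60.2 and 66.9 FPKM. FGFR3, the growth plate receptor mutated in achondroplasia, had 1.47 and 1.72 FPKM. TGFBR1 and TGFBR2 had 5.46 and 6.5 FPKM and 7.71 and 10.6 FPKM. TNFRSF1A, the main TNF receptor, had 102 and 96.3 FPKM, and IL1R1, the interleukin-1 receptor used in most chondrocyte inflammation assays, 9.68 and 10.1 FPKM. TLR4, the endotoxin receptor, had 3.44 and 4.15 FPKM, and TLR2 0.02 and 0.07 FPKM. The line therefore carried mRNA for the receptors of TNF, interleukin-1 and endotoxin, with TNFRSF1A above TLR4 by factors of 29.6 and 23.2.

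Ligands were split between growth factors, present in 25 of 34 cases (73.5%), and cytokines, in 10 of 25 (40.0%). CCN1, a matricellular protein, had 356 and 380 FPKM, TGFB1 229 and 173 FPKM and BMP4 42.5 and 40.3 FPKM. GDF5 of joint development had 0.26 and 0.18 FPKM and BMP2 0.29 and 0.19 FPKM. CSF1, the macrophage growth factor, had 102 and 95.8 FPKM, IL32 98.2 and 81.7 FPKM, CCL2 40.8 and 35.2 FPKM and CXCL8 28.6 and 31.6 FPKM. IL6 had 0.99 and 0.27 FPKM, IL1B 0.76 and 0.69 FPKM, TNF 0.34 and 0.11 FPKM and PTGS2, the inducible cyclooxygenase, 0.13 and 0.07 FPKM. CCL2 and CXCL8 were thus well above 1 FPKM, while IL6, IL1B, TNF and PTGS2 were below it. This was no split between chemokines and other cytokines. The chemokine genes CXCL1 (0 and 0.09 FPKM) and CCL20 (0.42 and 0.41 FPKM) were below 1 FPKM too. Of the other cytokine genes, IL11 (11.5 and 13.1 FPKM) and LIF (7.51 and 7.34 FPKM) were above it.

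All 31 cell cycle genes were present, with a median of 57.9 FPKM. MKI67, the proliferation antigen, had 54.7 and 55.7 FPKM, TOP2A, a topoisomerase of dividing cells, 69.9 and 88.6 FPKM, and CDK1, the mitotic kinase, 65.8 and 89.8 FPKM. PCNA, the sliding clamp of DNA replication, had 160.5 and 192 FPKM. Of the D-type cyclins CCND1 led CCND2 by factors of 25.7 and 26.2. CDKN1A, the p21 inhibitor of cell cycle kinases, had 97.5 and 104 FPKM. CDKN2A, whose p16 product acts through RB, had 20.7 and 17.4 FPKM, and RB1 9.44 and 12.6 FPKM. Cell cycle inhibitors and cell cycle drivers were therefore transcribed side by side in these cultures.

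Glycolysis was covered almost completely, with 22 of 23 genes present and a median of 111 FPKM. PKM had 1837 and 1587 FPKM, ENO1 1399 and 1442 FPKM and LDHA, which makes lactate, 756 and 783 FPKM. SLC16A3, a lactate exporter, had 261 and 251 FPKM and the glucose transporter SLC2A1 39.0 and 38.3 FPKM. HK1 exceeded HK2 in both libraries, with 113 and 109 FPKM against 3.17 and 3.58 FPKM.

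HOX genes keep a record of the position along the body axis at which a mesenchymal cell arose. Of 39 HOX genes 23 were present (59%). HOXA9 was highest, with 36.3 and 37.9 FPKM, followed by HOXC6, with 31.1 and 25.9 FPKM, HOXB2, with 20.7 and 20.6 FPKM, and HOXC10, with 19.6 and 21.4 FPKM. The HOXC cluster was the most complete, with 8 of 9 genes, against 5 of 11 for HOXA, 6 of 10 for HOXB and 4 of 9 for HOXD. All 4 members of paralogue groups 4 and 9 were present, and none of groups 7 and 12. HOXC13, a posterior gene that is also active in hair follicles, had 13.7 and 15.3 FPKM. HOXD10, HOXD11 and HOXD12, the limb genes of the D cluster, were listed at 0 in both libraries. Neighbouring HOX genes can share exons in their transcript models: 91.7% of the windows of HOXD3 and 76.7% of those of HOXD4 occurred in other genes.

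**Figure D5:**
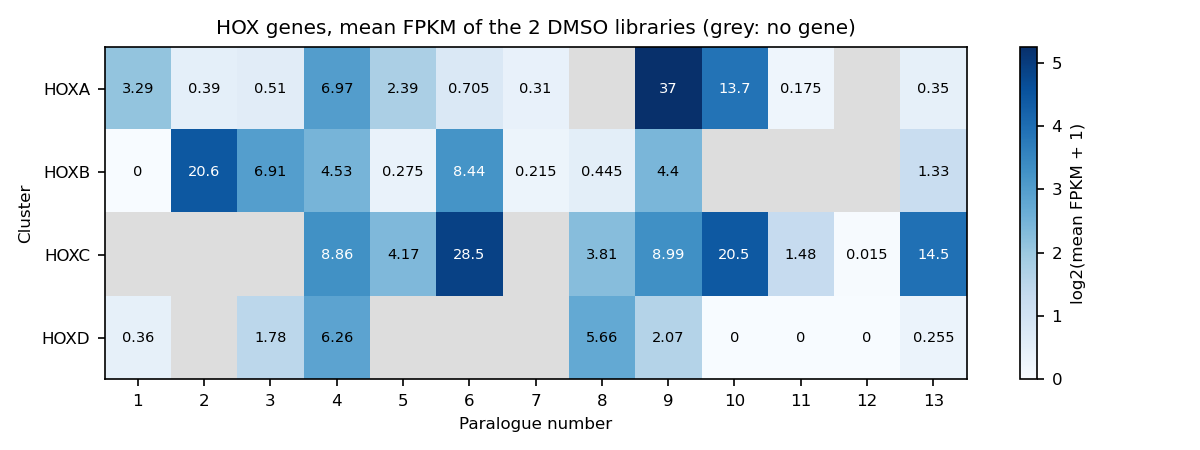
Mean FPKM of the 2 DMSO libraries for the 39 HOX genes, rows for the 4 clusters and columns for the paralogue number, with darker squares for higher log2(mean FPKM + 1) and grey where no gene exists. In the HOXC row 8 of 9 genes are at 1 FPKM or more, and the HOXD row is at 0 for numbers 10, 11 and 12.

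Other positional transcription factors were present in 18 of 34 cases (52.9%). TBX3 had 19.5 and 18.7 FPKM, TBX15 12.2 and 12.4 FPKM and PITX1, a hindlimb factor, 4.94 and 4.52 FPKM. TBX5, the forelimb factor, had 0.99 and 1.14 FPKM, and TBX4, a hindlimb factor, 0 and 0.03 FPKM. SHOX2, a transcription factor gene of limb growth, had 6.77 and 6.57 FPKM, and SIX2 14.3 and 10.4 FPKM. HAND1 and the limb factor LHX9 were listed at 0.

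Both libraries gave nearly the same picture. Of the genes present 98.1% lay within 1.5-fold of each other, with a median absolute log2 ratio of 0.15. In the lowest decile by level, up to a mean of 2.32 FPKM, 92.5% did, and in the highest decile 99.7% did. Across the 12140 genes, which are not independent replicates, the Pearson r of log2(FPKM + 1) was 0.994 and the Spearman rho 0.992. Another 403 genes reached 1 FPKM in 1 library alone. The rule is thus a soft edge: ZNF557 was inside it with 1.01 and 1.00 FPKM, and CCDC74B was outside with 1.4 and 0.99 FPKM. At the estimated 12950000 and 13150000 fragments, 1 FPKM rests on 12.95 and 13.15 fragments for an effective length of 1 kilobase.

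Among 6747 genes present with a mean of at least 10 FPKM, 4 differed more than 2-fold between the libraries, and each belongs to a set of near-identical copies. U2AF1, a splicing factor gene on chromosome 21, had 50.5 and 2.69 FPKM, with 98.3% of its windows in other genes. U2AF1L5, its listed copy, had 82.5 and 130.0 FPKM, and the sum of both was 133.01 and 132.69 FPKM. CT47A10 and CT47A8, X-linked testis antigen genes with all windows shared, had 16.5 and 4.76 FPKM and 9.85 and 22 FPKM. FAM156A had 15.9 and 6.58 FPKM, with 98.3% of its windows shared. The libraries thus differed in the split of the level between U2AF1 and its copy, while the sum was nearly equal.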

How the data were processed

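Total RNA of C28/I2 cells was sequenced, and the 2 libraries labelled 0.5% DMSO for 48 h were used. The authors deposited an FPKM value for each gene and library, per the file headers. The same deposited table has log2 fold changes, p-values and q-values of the authors' own test against FABP4, which were not used. The submitters' processing notes list RSEM 1.2.12, Bowtie2 2.2.5, DESeq2 1.4.5 and the genome GRCh38.p13, and do not say what each was used for. The sources used here do not give the RNA selection, the strandedness or the annotation.

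Genes were ranked by mean FPKM and called present at 1 FPKM in both libraries, with pandas 2.3.3. No test was made, because 1 group entered. Members of lists were counted against all 19215 genes. The members, the lists and the rule were chosen with earlier results of these data known. The metallothionein, MTRNR2L, GAGE, S100, annexin and ferritin families, the ratios, U2AF1L5, SPANXA2, CTSD, CPA4 and the printed sequences were chosen after their values were seen. Otherwise the genes named come from the 25 highest, which a figure shows in full, from the defining markers, from the highest or threshold members of each list and from the genes that differ most between libraries; not all of these are named in the text. Further list members (such as ITGA10, FGFR3, TLR4, IL6, GDF5 and HK2) were named for their role with their values seen.

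Depth was estimated from the steps between low FPKM values of 557 single-exon genes, of which 104 and 105 had usable steps, on a grid of 50000 fragments with the fragment length fitted at 290 bases; the method was tested on simulated data. It assumes whole fragments, which the deposited values need not come from, and its floor of 3 fragments covers counting error only. Shared sequence was measured in 60 windows of 50 bases, taken from each gene's longest transcript in GENCODE 29, as the percent found in transcripts of other genes. Any other gene name counted, including models that overlap the gene at the same place. Promoters came from RefSeq (250 bases before and 50 after the start, GRCh38.p14), the first entry for each gene, and no share is given for a group of genes with under 80% matched. Some list members are not reported here.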

Additional observations from a re-analysis of the deposited data

How the results depend on the processing

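The rule for presence set the counts of low lists. The genes present numbered 8851 at 5 FPKM and 13027 at 0.5 FPKM, against 12140; without 1 library they were 12337 or 12346. Cartilage matrix genes present were 11 at 0.5 FPKM and 1 at 5 FPKM, against 6, and 7 or 8 without 1 library. At 5 FPKM chondrogenic transcription factor genes fell to 7 of the 12, other lineage markers to 11 of the 36 and HOX genes to 13 of the 23, while fibroblast genes numbered 18 to 23 under all settings. The mean share of the 10 highest genes, 12.8%, became 14.6% without ribosomal protein genes and, in a setting added after the data were seen, 8.79% without the MTRNR2L genes; that of the 100 highest, 34.4%, became 30.8% without the MTRNR2L genes. Genes within 1.5-fold were 97.8% after rescaling to equal sums, 99.3% on log2(FPKM + 1) and 100% among the 100 highest (added later), against 98.1%. No paired analysis was possible because the result comes from no test between groups. Levels under about 0.23 FPKM rest on fewer than 3 fragments for an effective length of 1 kilobase.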
